A study of Mus musculus with 4 samples.

Results

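Activated and freshly isolated satellite cells of mouse skeletal muscle were compared in myogenic cells only. The myogenic cells were 4856 of the 28363 cell barcodes in the series, 2133 from the library of freshly isolated satellite cells (fiSC, 2705 barcodes) and 2723 from the library of activated satellite cells (ASC, 10818 barcodes). They were selected on measured values. A barcode was kept with at least 1000 UMIs (unique molecular identifiers, 1 per captured transcript), at least 500 detected genes and at most 10% mitochondrial UMIs. It also needed at least 3 UMIs over Pax7, Myod1, Des, Cdh15, Itga7 and Fgfr4, less than 0.5% of its UMIs from the macrophage genes Lyz2, Ctss, Tyrobp, Fcer1g and C1qb, and less than 0.5% from the fibroblast genes Col1a1, Col1a2 and Dcn. The levels of these 14 genes are therefore given as a description and support nothing.

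The series profiled 4 kinds of muscle cell by droplet single-cell RNA sequencing of transcript 3' ends, 1 library for each, to compare satellite cells, cultured myoblasts and progenitor cells derived from them. Both libraries used here came from animals of the genotype Pax7-nGFP, in which nuclear GFP reports Pax7, and from cells sorted as GFP+. The fiSC library pooled limb muscles of 3 male mice aged 13 weeks, with no injury named in the labels. The ASC library pooled 17 tibialis anterior muscles from male and female mice aged 18 to 24 weeks, taken 3 days after an injection of 10 uM cardiotoxin, a snake venom toxin that destroys muscle fibres. With 1 library per group there is no test and no p-value. Injury, muscle, age, sex and library cannot be told apart. The cultured myoblasts and progenitor cells, cited below for single genes, came from mice aged 16 weeks. The labels give 2 passages for the myoblasts and 5 for the progenitor cells.

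Satellite cells are the stem cells of skeletal muscle. At rest they lie between the fibre and its basement membrane, hold little RNA, express Pax7, and are kept quiescent by Notch signalling, by the calcitonin receptor and by matrix they deposit themselves. Damage to the fibre makes them leave quiescence, enlarge, take up the cell cycle as myoblasts and later fuse. The injured muscle is at that time crowded with macrophages that clear debris, so macrophage RNA is a known admixture of satellite cells sorted from it.

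Of the barcodes past the quality filter, the myogenic rule kept 94.8% in fiSC (2133 of 2251) and 40.4% in ASC (2723 of 6743). In ASC 3828 barcodes had under 3 UMIs of the myogenic genes and 192 more exceeded the macrophage limit, and 3207 barcodes (47.6%) had at least 0.5% macrophage gene UMIs with under 3 myogenic UMIs and are called macrophage cells here. The sorted ASC library thus held more macrophage cells than myogenic cells. EGFP, the reporter transcript, stood at 67.4 CPM (UMIs summed over the cells of a library and scaled to the same total) in fiSC, at 33.3 CPM in the ASC myogenic cells and at 1.37 CPM in the ASC macrophage cells. Just inside and outside the myogenic limit, the 77 fiSC cells with 3 UMIs had a median of 4610 UMIs and the 38 with 2 had 3557. In ASC the 40 cells with 3 UMIs had a median of 2320 UMIs, whereas the 343 with 2 had 14502 UMIs and 1.94% macrophage gene UMIs. At the macrophage limit, 18 ASC myogenic cells lay between 0.4 and 0.5% and 23 excluded cells between 0.5 and 0.6%. The 2 sets of myogenic cells shared 1 cell barcode.

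The libraries differed in depth. ASC myogenic cells had a median of 48172 UMIs and 6444 genes, and fiSC cells 9020 UMIs and 2577 genes. When each cell was thinned to 2000 UMIs, which left out 23 fiSC and 27 ASC cells, the medians were 1051 and 1056 genes. Summed UMIs were 20063949 in fiSC and 130292738 in ASC, so that a gene at 10 CPM or more has a 95% Poisson half-width of at most 15% and 5.59%. These intervals, and the binomial ones given for shares of cells, cover counting error only and say nothing of the spread between animals or libraries. Median mitochondrial shares were 3.36% in fiSC and 3.15% in ASC.

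Genes reaching 10 CPM in either library were counted as measured. The size rule asked for a ratio of (CPM + 5) of 2-fold or more between the libraries, in either direction. Fold values and log2 ratios below are on that CPM + 5 scale, which understates the change of low genes. Of 9002 measured genes, 2113 (23.5%) were higher in ASC and 2106 (23.4%) were lower, with a median log2 ratio of 0.03. At least 4-fold differences were seen for 686 higher and 786 lower genes, and at least 10-fold differences for 98 higher and 252 lower genes. On this scale the largest differences lay more often on the fiSC side. The split depends on the scaling, because ribosomal protein genes took 162518 CPM in fiSC and 278292 CPM in ASC. With TMM factors 2655 genes were higher and 1674 lower (61.3% of the called genes higher in place of 50.1%), and the median of all measured genes moved by 0.24 on the log2 scale.

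**Figure D1:**
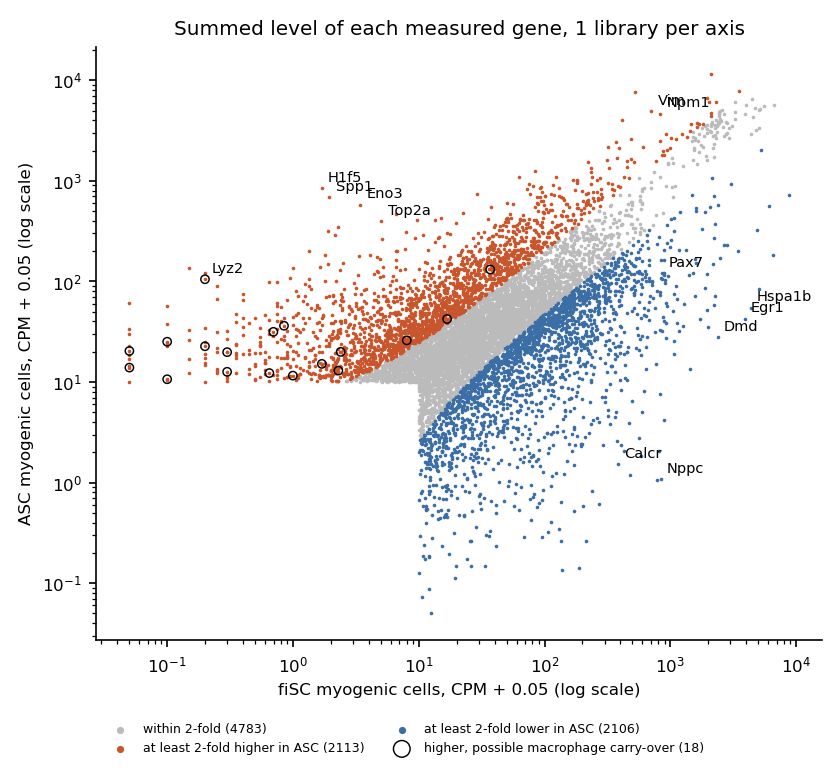
Each point is 1 of the 9002 measured genes, with its CPM (plus 0.05, log scale) summed over the fiSC myogenic cells on the x axis and over the ASC myogenic cells on the y axis, 1 library each. Orange points are the 2113 genes at least 2-fold higher in ASC, blue points the 2106 lower, grey points the rest, and open circles the 18 higher genes marked as possible macrophage carry-over. The blue points reach further from the grey band than most orange ones.

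CPM compares the make-up of the RNA, not its amount. The mean ASC cell had 47849 UMIs and the mean fiSC cell 9406.4, a ratio of 5.09. Of the 2106 genes lower in ASC on the CPM scale, 1163 had more UMIs per cell in ASC and 943 had fewer. Myod1, the determination factor of myoblasts, fell from 484.8 to 190.3 CPM but went from 4.56 to 9.10 UMIs per cell. Pax7 fell on both scales, from 864.7 to 121.3 CPM and from 8.13 to 5.81 UMIs per cell. More RNA in a cell and more complete sequencing of it cannot be told apart here.

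The genes with the highest ratios were cell cycle, histone and metabolic genes. H1f5 (ENSMUSG00000058773), a linker histone made in S phase, stood at 1.65 CPM in fiSC (interval 1.13 to 2.31) and 844 CPM in ASC (839 to 849), 128-fold higher. Eno3, the muscle form of the glycolytic enzyme enolase, was at 3.39 and 582 CPM (69.9-fold), and it was detected in 0.616% of thinned fiSC cells, 62.5% of ASC cells and 5.53% of ASC macrophage cells. The muscle receptor gene Chrna1 was likewise at 13.5 CPM in the ASC macrophage cells and 286 CPM in the ASC myogenic cells. The part of myogenic RNA in the macrophage shares given here and below was not tested. Phgdh, the first enzyme of serine synthesis, was at 7.93 and 311 CPM (24.4-fold). The core histone genes H2ac4 (2 UMIs in fiSC, 136 CPM in ASC) and H3c3 (3 UMIs in fiSC, 121 CPM in ASC) have near-identical copies, so the split of reads among copies is uncertain. The remaining genes among the 15 highest were Pclaf, a PCNA partner (48.9-fold), the spindle genes Spc24 (28-fold) and Prc1 (26.8-fold), the microtubule regulator Stmn1 (28.2-fold), the mitotic genes Ube2c, Birc5, Top2a and Cdk1 described below, and Spp1 and Fabp5.

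Spp1 and Fabp5 are also macrophage genes. Spp1 (ENSMUSG00000029304), the matrix cytokine osteopontin, was at 1.89 CPM in fiSC, 686 CPM in the ASC myogenic cells and 11951 CPM in the ASC macrophage cells. Fabp5, a fatty acid binding protein, was at 6.53, 467 and 8754 CPM in the same order. At the carry-over fraction estimated from macrophage markers (0.897%, described with the macrophage markers), macrophage RNA would make up 15.6% of the Spp1 level and 16.8% of the Fabp5 level in the ASC myogenic cells. In cultured cells of the same genotype selected by the same rule, Spp1 was at 7075 CPM in myoblasts and 404 CPM in the progenitor cells derived from them, and Fabp5 at 171 and 425 CPM.

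The lowest ratios belonged to secreted, surface and rapid-response genes of the fresh cells. Nppc (ENSMUSG00000026241), which encodes C-type natriuretic peptide, was at 838 CPM in fiSC (826 to 851) and 1.03 CPM in ASC (0.862 to 1.22), 140-fold lower. Hmcn2, a large matrix protein of the hemicentin family, was at 786 and 1.01 CPM (132-fold lower), and Medag at 809 and 2.03 CPM (116-fold lower). Erfe, the hormone erythroferrone, was at 896 and 4.11 CPM, and Cp, the copper-carrying ferroxidase ceruloplasmin, at 586 and 1.79 CPM. The hyaluronan-binding protein gene Tnfaip6 (73.0-fold), the plasma glutathione peroxidase Gpx3 (66.4-fold), the C-type lectin Chodl (61.6-fold) and Adamtsl1 (60.4-fold) were lower as well. Dmd, which encodes dystrophin, was at 2379 CPM in fiSC and 27.8 CPM in ASC, and after thinning it was detected in 92.6% and 6.86% of cells, and in 2.13% of ASC macrophage cells. The transcription factor gene Cebpd was at 1429 and 13.3 CPM.

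Levels of these genes in the cultured myogenic cells of the series differed from gene to gene. Nppc was at 0.0181 CPM in cultured myoblasts and 9.85 CPM in the progenitor cells derived from them, Chodl at 0.0544 and 0.804 CPM, and Calcr at 0.0544 and 0.280 CPM. Dmd was at 249 CPM in myoblasts and 105 CPM in those progenitor cells, above its 27.8 CPM in ASC. Egr1 was at 99.6 and 393 CPM there, against 42.7 CPM in ASC. The libraries are 1 per group, so these values are set side by side without a test.

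**Figure D2:**
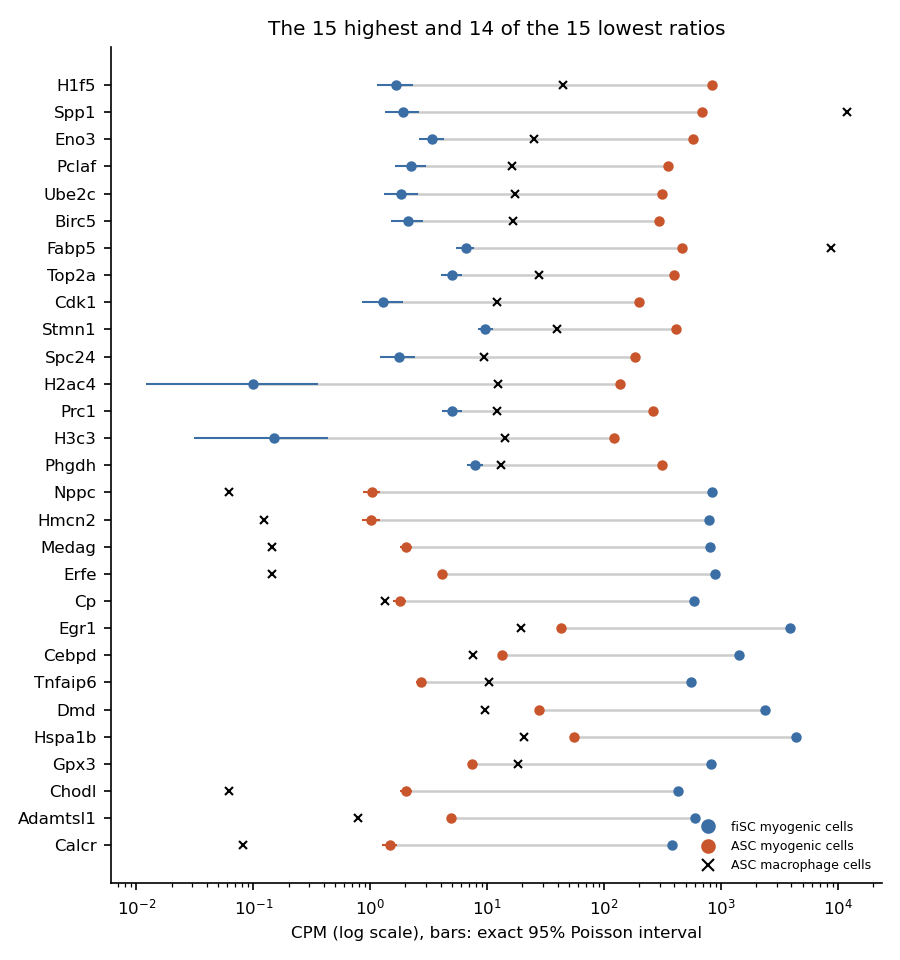
Points give the summed CPM (log scale) of the 15 genes with the highest ratios and 14 of the 15 with the lowest in fiSC (blue) and ASC (orange) myogenic cells, with bars for the exact 95% Poisson interval, and crosses give the ASC macrophage cells. Spp1 and Fabp5 are the 2 highest genes whose macrophage level (11951 and 8754 CPM) lies above the ASC myogenic level.

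A set of 28 gene lists describes which functions these differences fell on. Their medians ran from 3.63 for the G2/M list down to -3.63 for the heat shock list, against 0.03 over all measured genes. The lists were drawn up with earlier results of these libraries known, so their direction is no independent evidence.

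**Figure D3:**
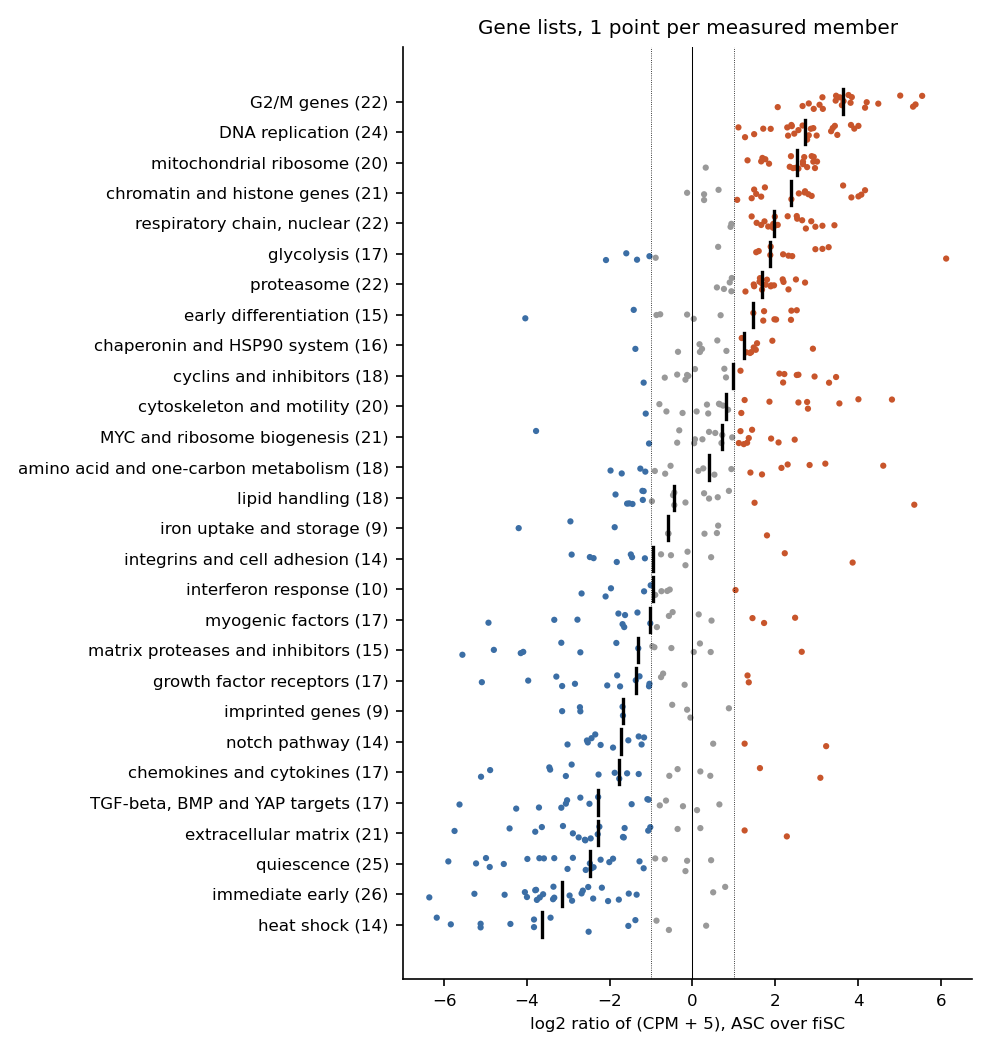
Each point is a measured member of 1 of the 28 lists, placed by its log2 ratio of (CPM + 5) in ASC over fiSC, with orange for genes at least 2-fold higher, blue for genes at least 2-fold lower and grey for the rest. Black bars are list medians, numbers in brackets are measured members, and dotted lines mark the 2-fold limits. All members of the G2/M and DNA replication lists lie to the right of the upper limit.

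Cell cycle genes were higher in ASC. All 22 measured G2/M genes and all 24 measured DNA replication genes met the size rule, with medians of 3.63 and 2.71. Ube2c, which helps to mark cyclins for destruction at anaphase, was at 1.84 CPM in fiSC and 316 CPM in ASC (46.8-fold). Birc5, which encodes survivin of the chromosomal passenger complex, was at 2.09 and 293 CPM (42.0-fold). Top2a, which untangles sister chromatids, was at 4.98 and 396.5 CPM (40.2-fold), and Cdk1, the mitotic kinase, at 1.30 and 199 CPM (32.4-fold). Of the replication genes, Uhrf1 (16.1-fold), Tk1 (15-fold), Rrm2 (14.3-fold) and the helicase subunit Mcm3 (11.3-fold) had the highest ratios, and the polymerase subunit Pola1 (43.3 and 99.5 CPM) the lowest. Summed over the list, G2/M genes took 56.9 CPM in fiSC, 2755 CPM in ASC myogenic cells and 196 CPM in ASC macrophage cells.

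The promoters of the 4 G2/M genes among the 15 highest are shown because they rose together and because G2/M promoters are known for 2 short motifs, the CCAAT box bound by NF-Y and the cell cycle genes homology region (CHR) through which the DREAM and MMB complexes act. Each line gives the 150 bases before the RefSeq start on GRCm38.p6, 5′ to 3′ on the gene's strand, with CCAAT (or its reverse complement ATTGG) and the CHR letters TTTGAA or TTCGAA (or TTCAAA) in capitals. The positions are chr2:164769779-164769928 (+) for Ube2c, chr11:117849087-117849236 (+) for Birc5, chr11:99024190-99024339 (-) for Top2a and chr10:69352913-69353062 (-) for Cdk1.
Ube2c: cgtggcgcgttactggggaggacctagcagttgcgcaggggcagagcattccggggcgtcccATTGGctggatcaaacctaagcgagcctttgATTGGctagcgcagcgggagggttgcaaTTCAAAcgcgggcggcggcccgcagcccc
Birc5: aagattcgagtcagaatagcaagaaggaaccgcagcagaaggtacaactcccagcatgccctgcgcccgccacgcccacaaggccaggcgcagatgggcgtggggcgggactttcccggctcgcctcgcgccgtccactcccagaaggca
Top2a: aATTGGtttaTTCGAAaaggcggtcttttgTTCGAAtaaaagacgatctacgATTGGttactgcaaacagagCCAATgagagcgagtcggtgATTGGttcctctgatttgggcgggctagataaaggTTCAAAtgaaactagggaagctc
Cdk1: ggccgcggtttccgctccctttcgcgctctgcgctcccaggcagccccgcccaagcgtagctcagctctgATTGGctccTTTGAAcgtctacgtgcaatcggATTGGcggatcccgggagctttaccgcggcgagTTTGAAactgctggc

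Ube2c held 2 CCAAT letters and 1 CHR match in this stretch, Top2a held 4 and 3, Cdk1 held 2 and 2, and Birc5 held none. In windows from 250 bases before to 50 after the start, searched on both strands, 16 of the 18 measured G2/M genes with a RefSeq entry held CCAAT (88.9%) and 13 held a CHR match (72.2%). Of 7178 measured genes with an entry, 43.2% held CCAAT and 16.2% a CHR match, and of all 27025 entries 41.1 and 21.7% did. A match is a description of the letters, not evidence of a bound site, and a window without one says only that these letters are not in it.

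Among cyclins and their inhibitors 9 of 18 measured genes were higher and 1 was lower. Ccne1, the cyclin of S phase entry, was at 1.89 and 71.6 CPM (11.1-fold), E2f8, a repressor made in S phase, at 0.299 and 47.1 CPM (9.82-fold), Cdk4 at 31.3 and 276 CPM (7.74-fold), and Ccne2 was 5.89-fold higher. Cdkn1a, which encodes the inhibitor p21, was the lower gene (338 and 147 CPM), and in the 348 ASC cells with few G2/M UMIs, described next, it was 1.92-fold lower, short of the rule. The inhibitors Cdkn1b (68.9 and 41.5 CPM) and Cdkn1c (36.5 and 33.0 CPM) stayed within 2-fold.

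Among 2000 UMIs, a sum of 2 or more over the G2/M genes was found in 1.37% of fiSC (0.922 to 1.97%, 29 of 2110 cells) and in 87.1% of ASC (85.8 to 88.3%, 2348 of 2696 cells). The other 348 ASC cells are not free of cell cycle RNA, with Top2a at 196 CPM. Against all fiSC cells, these 348 still gave 2059 higher and 1827 lower genes, of which 1931 and 1806 were among those called with all ASC cells. In them the median was 2.61 for DNA replication (2.71 in all ASC cells), -1.86 for quiescence (-2.48) and -1.41 for extracellular matrix (-2.29). These 348 cells also had more RNA of some mural and fibroblast genes than all ASC cells. Rgs5, on the quiescence list, was at 42.3 CPM (4.17 in all ASC cells). The matrix genes Bgn and Col1a1 were at 28.5 CPM (3.56) and 23.5 CPM (2.50). The part of admixed cells in these medians was not tested.

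Quiescence genes were lower without exception among those that met the size rule, 20 of 25 measured with a median of -2.48, and 0 were higher. Of these 25, 3 (Cdh15, Fgfr4 and Itga7) were used to select the cells. Calcr (ENSMUSG00000023964), the calcitonin receptor that holds satellite cells in quiescence, was at 382 CPM in fiSC (373 to 391) and 1.47 CPM in ASC (1.27 to 1.69), 59.8-fold lower. It was detected in 28.2% of thinned fiSC cells, 0.593% of ASC cells and 0.0687% of ASC macrophage cells. Chrdl2, a BMP antagonist, was at 187 and 0.0921 CPM, and it was found in 28.9% of thinned fiSC cells and in 0 of 2696 ASC cells, so a share of up to 0.111% (3 counts of the total) is allowed, which bounds detection at 2000 UMIs and not expression. In unthinned cells, 64.2% of fiSC and 0.367% of ASC cells had a Chrdl2 UMI. Pdzd2 (31.7-fold) and the phosphodiesterase Pde4b (29.8-fold) completed the largest differences. Itga7 (56.6 and 79.3 CPM), Cdh15 (60.8 and 53.4 CPM), Cdkn1c, Cdkn1b and Foxo3 (61.1 and 30.4 CPM) stayed within 2-fold.

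Of 17 measured transcription factors of the myogenic line 9 were lower and 3 higher, with a median of -1.02. Without Pax7 and Myod1, which selected the cells, 7 of 15 were lower and 3 higher (20%, against 23.5% over all measured genes), with a median of -0.86. Msc, the repressor musculin, was at 403 CPM in fiSC and 8.33 CPM in ASC (30.6-fold lower), and Myf5 at 402 and 35.3 CPM (10.1-fold lower). Eya2 was 3.46-fold lower. Pax7 was 6.88-fold lower, as a gene of the selection rule, and was detected in 69.2% of thinned fiSC cells, 23.6% of ASC cells and 0.721% of ASC macrophage cells. Without thinning, at median depths of 9020, 48172 and 15123 UMIs for those 3 sets, the fiSC and ASC shares were 91.7 and 94.0%. The higher members were Tead4 (0.748 and 27.0 CPM, 5.57-fold), Myog (4.44 and 26.2 CPM, 3.31-fold) and the E protein gene Tcf3 (15.1 and 49.9 CPM). Tcf12, another E protein gene, was at 236 and 262 CPM.

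Of 26 listed genes of early differentiation 15 were measured, of which 8 were higher and 2 lower (median 1.47). The list total did not rise with them, at 731.5 CPM in fiSC and 707.3 CPM in ASC. In thinned cells the list sum had a median of 1 UMI and a mean of 1.468 UMIs in both libraries. Chrna1, a subunit of the muscle acetylcholine receptor, was at 45.6 and 286 CPM (5.75-fold), its relative Chrnd at 0.498 and 23.5 CPM, the receptor clustering adaptor Dok7 at 0.698 and 24.8 CPM, and troponin Tnnt2 at 0.847 and 18.7 CPM. Mymk, the fusion protein myomaker, was at 0.748 and 13.9 CPM. Chrnd, Dok7, Tnnt2, Mymk, Chrng and Myog were under 10 CPM in fiSC and counted as measured only through ASC. Members under 10 CPM in both libraries were left out, so the share of higher genes depends in part on that minimum. Musk, the kinase that clusters those receptors, went the other way, from 375 to 18.1 CPM (16.4-fold lower), as did Chrnb1 (93.0 and 31.7 CPM). In the 348 ASC cells with fewer than 2 G2/M UMIs Myog stood at 77.0 CPM. It was detected in 0.379% of thinned fiSC and 3.49% of thinned ASC cells and in 0.275% of ASC macrophage cells, so most cells of either library had no Myog UMI at that depth.

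Of 14 measured Notch pathway genes 11 were lower and 2 higher (median -1.73). The target Heyl (61.6 and 3.24 CPM, 8.08-fold), the coactivator Maml2 (5.84-fold), the ligand Jag1 (66.6 and 7.42 CPM, 5.77-fold) and the receptor Notch3 (134 and 20.5 CPM, 5.44-fold) had the largest differences. Hes6, which opposes Hes1, rose from 3.44 to 74.4 CPM (9.41-fold), and the ligand Jag2 from 1.74 to 11.1 CPM. The ligand Dll1 was at 11 and 17.5 CPM.

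Receptors for growth factors and cytokines were lower for 12 of 17 measured genes and higher for 2 (median -1.37). Among the lower was Fgfr4, a gene of the selection rule that was 1.9-fold lower, short of 2-fold, in thinned cells. Without it 11 of 16 were lower (median -1.56). Osmr, the oncostatin M receptor, was at 319 and 4.52 CPM (34.1-fold lower), Fgfr1 at 1121 and 67.1 CPM (15.6-fold), Egfr at 821 and 79.2 CPM (9.80-fold) and Igf2r at 318 and 31.4 CPM (8.86-fold). Met, the receptor of hepatocyte growth factor, stood near the limit at 231 and 109 CPM, and was 1.87-fold lower in thinned cells and 1.91-fold in the 348 ASC cells with fewer than 2 G2/M UMIs, short of the rule. The higher members were the heparan sulfate proteoglycans Sdc1 (11.3 and 36.8 CPM) and Gpc1 (33.3 and 91.3 CPM). On the scale of UMIs per cell, a gene must be more than 5.09-fold lower in CPM to have fewer UMIs in the mean ASC cell.

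Targets of TGF-beta, BMP and YAP were lower for 12 of 17 measured genes, and 0 were higher (median -2.28). Ccn2, the matricellular protein CTGF, was at 271 and 0.560 CPM (49.7-fold lower), Pmepa1, a feedback inhibitor of TGF-beta, at 1059 and 50.4 CPM (19.2-fold), and Skil, a SMAD repressor, at 330 and 20.6 CPM (13.1-fold). Tgif1 was 8.33-fold lower. Id1 (130 and 140 CPM) and Id2 (132 and 112 CPM) stayed within 2-fold, whereas Id3 fell from 1182 to 207 CPM.

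Matrix genes were lower as a group. Of 21 measured extracellular matrix genes 17 were lower and 2 higher (median -2.29). The basement membrane collagens Col4a1 (473 and 3.86 CPM, 53.9-fold) and Col4a2 (165 and 2.96 CPM, 21.4-fold) led, followed by Col15a1 (13.9-fold) and Col6a1 (12.5-fold). The higher members were the laminin chain gene Lamb1 (8.07 and 26.4 CPM) and Col1a2 (10.6 and 70.6 CPM), the latter a gene of the selection rule, without which 17 of 20 were lower and 1 higher. Markers of fibroblasts that the rule did not use summed to 740 CPM in fiSC and 93.7 CPM in ASC, with Col3a1 the most abundant in both (365 and 50.2 CPM). Of those 12 markers 6 reached 1 CPM in fiSC and 7 in ASC. Their part in the matrix values was not tested.

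Among matrix proteases and inhibitors 8 of 15 were lower and 1 was higher. The inhibitor Timp3 was at 615 and 8.15 CPM (47.2-fold lower) and the protease genes Adamts1 (27.8-fold), Adamts5 (17.7-fold) and Mmp2 (89.9 and 0.576 CPM, 17.0-fold) were lower with it. Timp1 moved against them, from 23.6 to 173 CPM (6.24-fold higher), with 31.9 CPM in ASC macrophage cells. Of 14 adhesion genes 7 were lower and 2 higher (median -0.95). Without Itga7 and Cdh15, genes of the selection rule, 7 of 12 were lower (58.3%) and 2 higher (16.7%), with a median of -1.31. Over all measured genes 23.4% were lower and 23.5% higher. Icam1 (7.57-fold), Megf10 (5.59-fold), Vcam1 (637 and 118 CPM, 5.24-fold) and Itgav (3.56-fold) were lower, the first with 33.7% of its low ASC level accounted for by the carry-over estimate. Cdh2, N-cadherin, rose from 6.53 to 163 CPM (14.6-fold) and the integrin chain gene Itga3 from 1.25 to 24.4 CPM.

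Stress and rapid-response genes had the lowest medians. Of 26 immediate early genes 24 were lower (median -3.15) and 0 were higher, and of 14 heat shock genes 11 were lower (median -3.63) and 0 were higher. Egr1 was at 3904 CPM in fiSC and 42.7 CPM in ASC (82.0-fold lower), the antiproliferative gene Btg2 at 775 and 15.2 CPM (38.6-fold), Fosb at 854 and 31.9 CPM (23.3-fold) and the mRNA decay factor Zfp36 at 401 and 19.5 CPM (16.6-fold). The inducible chaperone genes Hspa1b (4339 and 55 CPM) and Hspa1a (5091 and 84.1 CPM) are near-identical copies whose reads may be split between them in either way. Dnajb1 (2220 and 58.8 CPM) and Hspb1 (6520 and 183 CPM) were 34.9- and 34.7-fold lower. The constitutive Hspa8 was at 4340 and 2927 CPM, within 2-fold.

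These genes varied widely among fresh cells. Among 2000 UMIs per cell, heat shock genes had a median of 48 UMIs in fiSC (25 to 103 between the quartiles, 218 at the 95th percentile) and 13 in ASC (10 to 17, and 23). Immediate early genes had a median of 25 UMIs in fiSC (15 to 42.75) and 3 in ASC (1 to 5). Quiescence genes had a median of 18 UMIs in fiSC (13 to 24) and 2 in ASC (1 to 3), with the fiSC quartiles closer together relative to the median. Both libraries went through the same collagenase digestion and sort, per the labels' protocols, and the part of isolation in these levels was not tested. When the comparison was repeated with only the 1047 fiSC cells below the fiSC median for the summed immediate early and heat shock genes, 2088 genes were higher and 2160 lower, and the medians were -2.51 for quiescence and -2.12 for extracellular matrix.

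**Figure D4:**
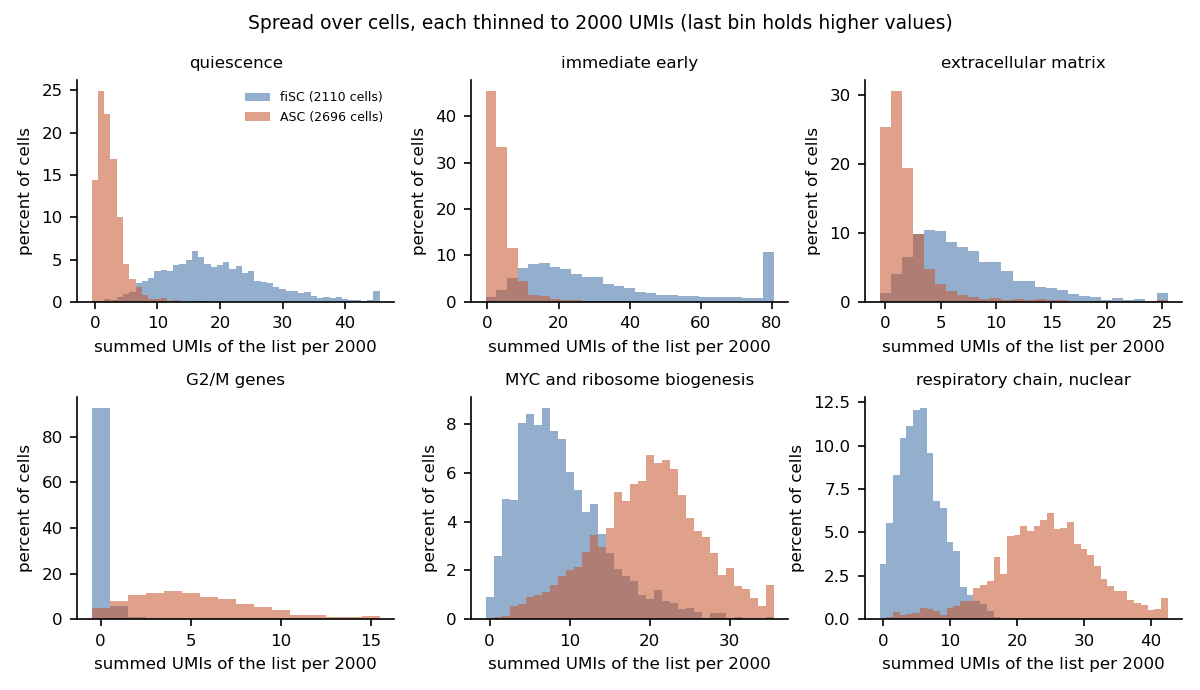
Histograms give the percent of cells (y axis) by the summed UMIs of a list among 2000 UMIs per cell (x axis) for 2110 fiSC cells (blue) and 2696 ASC cells (orange), 1 library each, with higher values gathered in the last bin. Between the 5th and 95th percentiles quiescence sums span 7 to 34 UMIs in fiSC and 0 to 6 in ASC, respiratory chain sums 1 to 12 and 12 to 37, and immediate early sums reach 106.5 in fiSC.

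The mitochondrial ribosome, proteasome, and chaperonin and HSP90 lists had positive medians, falling in that order. The chaperonin and HSP90 list summed to 15444 CPM in fiSC and 15852 CPM in ASC. Heat shock genes, among them other chaperones, were mostly lower, as given above. Of 20 genes of the mitochondrial ribosome 19 were higher and 0 lower (median 2.53), led by Mrpl11 (8.05-fold), Mrpl42 (7.78-fold), Mrpl12 (51.0 and 421 CPM, 7.60-fold) and Mrpl51 (7.56-fold). Of 22 proteasome genes 17 were higher and 0 lower (median 1.68), with Psma7 at 86.7 and 600 CPM (6.6-fold), Psmb5 5.67-fold and Psma4 4.99-fold higher. Of 16 chaperonin and HSP90 genes 9 were higher and 1 lower (median 1.25), among them Ranbp1 (7.51-fold), prefoldin Pfdn1 (3.82-fold) and the chaperonin subunits Cct8 (2.96-fold) and Cct2 (222 and 651 CPM). Of the 8 measured subunits of the ring 7, namely Cct2, Cct4, Cct5, Cct6a, Cct7, Cct8 and Tcp1, met the rule, and Cct3 stayed at 1.77-fold. The lower gene was Hsp90aa1, the inducible HSP90 (5270 and 2027 CPM), beside the constitutive Hsp90ab1 at 4702 and 5290 CPM.

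Of 21 genes of ribosome biogenesis 9 were higher and 2 lower, with a median of 0.72. Myc, the growth factor-induced activator of that program, was one of the lower, at 406 CPM in fiSC and 24.9 CPM in ASC (13.8-fold), or 3.82 and 1.19 UMIs per cell. Npm1, which encodes the nucleolar chaperone nucleophosmin, was at 835 and 4658 CPM (5.55-fold higher), and the small nucleolar ribonucleoprotein genes Nhp2 (4.24-fold), Nop10 (3.72-fold) and Dkc1 (2.72-fold) were higher. Nop58, another snoRNP gene, was the second lower one (683 and 327 CPM), and was 1.91-fold lower, short of the rule, in thinned cells. Gnl3, Nop2, Polr1a and Rrs1 stayed within 2-fold.

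Energy genes were higher in both main pathways. Of 22 nuclear-encoded respiratory chain genes 20 were higher and 0 lower (median 1.98), with the cytochrome oxidase subunit gene Ndufa4 at 73.0 and 838 CPM (10.8-fold), Atp5g1 of ATP synthase at 93.7 and 866 CPM (8.82-fold), Sdhd of complex II 7.83-fold and Uqcr10 of complex III 7.32-fold higher. Their sum had a median of 5 UMIs in fiSC and 24 in ASC among 2000 UMIs per cell. Glycolysis had 11 higher and 4 lower members among 17 measured (median 1.88). Pgk1 (55.7 and 587 CPM, 9.75-fold), Tpi1 (8.84-fold) and Pgam1 (7.85-fold) followed Eno3. The lower 4 were the first kinases Hk1 (79.6 and 36.2 CPM) and Hk2 (129 and 39.2 CPM), the phosphofructokinase Pfkp (157 and 59.2 CPM) and the lactate exporter Slc16a3 (28.8 and 2.96 CPM). The share of lower genes in this list, 23.5%, is near the 23.4% over all measured genes. Hk1 was 1.84-fold lower, within the size limit, in the 348 ASC cells with fewer than 2 G2/M UMIs.

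Of 18 measured amino acid and one-carbon genes 7 were higher (38.9%) and 4 lower (22.2%, against 23.4% over all measured genes), with a median of 0.39. Besides Phgdh, the higher members included Asns, which makes asparagine, at 2.39 and 63.4 CPM (9.25-fold), Psat1 of serine synthesis (7.09-fold) and the mitochondrial folate enzyme gene Shmt2 (4.94-fold). The related enzyme genes Shmt1 (33.1 and 40.6 CPM), Mthfd2 (76.4 and 151 CPM) and Mthfd1l (48.3 and 72.0 CPM) stayed within 2-fold. The lower members were the transporters Slc7a1 (175 and 40.6 CPM) and Slc38a2 (786 and 237 CPM), the polyamine enzyme Odc1 (1014 and 422 CPM) and the glutathione-degrading Chac1, while the transporters Slc7a5, Slc3a2 and Slc1a5 stayed within 2-fold. Iron genes showed 1 higher of 9, the transferrin receptor Tfrc (24.0 and 96.3 CPM), and 3 lower, Slc39a14 (18.4-fold), Hmox1 (7.70-fold) and the exporter Slc40a1 (16.5 and 0.844 CPM). Those shares, 11.1% higher and 33.3% lower, stand against 23.5 and 23.4% over all measured genes and rest on few genes.

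Most chromatin and cytoskeleton genes that met the size rule were higher in ASC. Of 21 measured chromatin genes 17 were higher and 0 lower (median 2.39). Hmga2, an architectural protein of fetal and growing cells, was at 6.53 and 203 CPM (18.0-fold), Smc2 of condensin 16.9-fold, Uhrf1 16.1-fold and Hmgb2 (83.2 and 1261 CPM) 14.4-fold higher. Of 20 cytoskeleton genes 9 were higher and 1 lower (median 0.80). Without Des, a gene of the selection rule, 9 of 19 were higher and 1 lower (median 0.86). Besides Stmn1, the tubulin genes Tubb5 (63.0 and 1089 CPM, 16.1-fold) and Tuba1b (11.7-fold) and the intermediate filament gene Vim (705 and 4904 CPM, 6.91-fold) led. Tubb2a was the lower one (172 and 75.8 CPM), with a 1.68-fold difference, short of the rule, in the 348 ASC cells with few G2/M UMIs. The actins Actb (2251 and 3563 CPM) and Actg1 (2245 and 2859 CPM) stayed within 2-fold. Of 18 listed imprinted growth genes only 9 were measured. Of these 5 were lower (55.6%, against 23.4% over all measured genes) and 0 higher, with a median of -1.68, which rests on few genes. Among the lower were Igf2r, Plagl1 (113 and 12.8 CPM), Zim1 (77.7 and 7.59 CPM) and Peg3 (558 and 170 CPM).

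Macrophage RNA was present at a low level in the ASC myogenic cells. At least 1 UMI of the 5 macrophage genes of the rule was found in all but 40 of 2723 ASC cells (1.47% had none), with a median of 0.0114% of UMIs, whereas 99% of fiSC cells had none. The 20 macrophage markers that the rule did not use summed to 23.9 CPM in fiSC, 174 CPM in the ASC myogenic cells and 16340 CPM in the ASC macrophage cells. In fiSC 5 of the 20 reached 1 CPM and 2 were at 0, and in ASC all 20 reached 1 CPM. Relative to the macrophage cells, the markers stood at a median of 0.897% in the ASC myogenic cells, from 0.705% for C1qc to 2.37% for Fcgr3, except Cx3cr1 at 48.1%. Cx3cr1 was at 13.5 CPM in fiSC, where the next highest marker, Cd68, was at 2.24 CPM, and at 21.4 CPM in ASC.

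With that fraction, 18 of the 2113 higher genes (0.852%) had at least 25% of their ASC level accounted for by macrophage RNA and were marked as possible carry-over. The 8 most abundant were Ctsd (132 CPM in ASC), Lyz2 (105 CPM), Cyba (42.3 CPM), Ctss (36.2 CPM), Pf4 (31.5 CPM), Grn (25.9 CPM), Tyrobp (25.1 CPM) and Fcer1g (22.6 CPM), of which 4 are genes of the rule. Ctsd, a lysosomal protease, was at 36.9 CPM in fiSC and 8782 CPM in the macrophage cells, so 59.9% of its ASC level matched the estimate. Subtracting the estimate from every gene left 2072 higher genes, 41 fewer. Carry-over also bears on lower genes, of which 46 were marked. Apoe, a lipid carrier, was at 597 CPM in fiSC and 161 CPM in the ASC myogenic cells, and the estimate of 182 CPM from macrophage cells (20244 CPM) covered all of the ASC level.

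**Figure D5:**
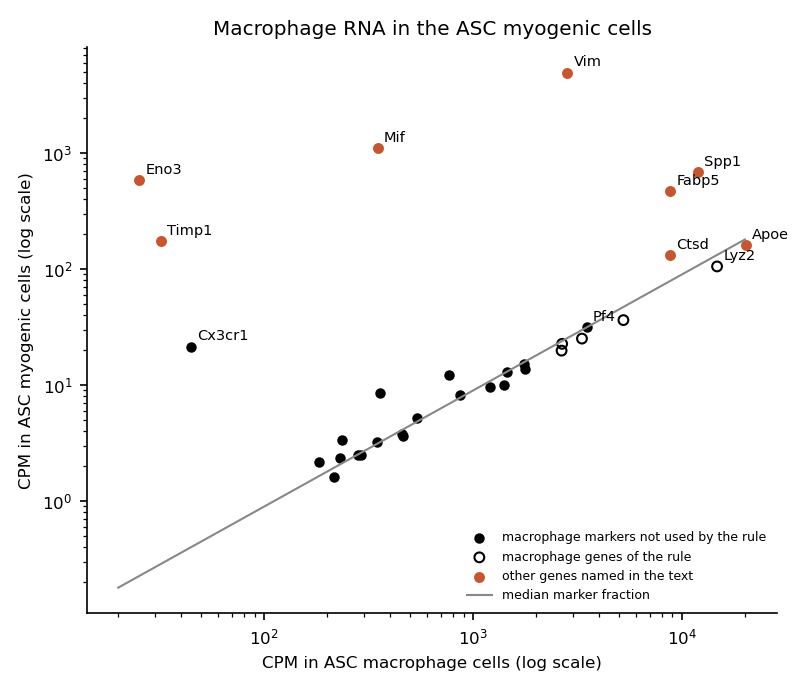
Each point is a gene, with its CPM in the 3207 ASC macrophage cells on the x axis and in the 2723 ASC myogenic cells on the y axis (log scales). Macrophage markers (black, with open circles for the genes of the selection rule) lie along the grey line at the median fraction of 0.897%, except Cx3cr1, and Apoe lies on it too, while Spp1, Fabp5 and the other named genes (orange) lie above it.

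Immune and lipid genes have to be read with those values. Of 17 chemokine and cytokine genes 11 were lower and 2 higher, and 6 of the 17 were marked as possible carry-over. Cxcl1 was at 1957 and 52.0 CPM (34.4-fold lower), Ccl2 at 453 and 10.4 CPM (29.7-fold), Ccl7 11-fold and the growth factor Igf1 10.9-fold lower (68.5 and 1.76 CPM, all of the latter within the estimate). The marking concerns their ASC level, which subtraction of the estimate lowers further. Mif, a cytokine-like tautomerase, was at 124 and 1091 CPM (8.51-fold higher), with 349 CPM in macrophage cells, and Il34 at 4.88 and 25.5 CPM. Of 10 interferon genes 5 were lower and 1, Bst2, was higher (1.88-fold, short of the rule, with a macrophage limit of 0.1%), with the class I genes H2-K1 (302 and 42.8 CPM) and H2-D1 (431 and 106 CPM) among the lower. Of 18 lipid genes 7 were lower and 2 higher (Fabp5 and the lipid droplet protein gene Plin2), with a median of -0.45. Those shares, 38.9 and 11.1%, stand against 23.4 and 23.5% over all measured genes. Of the lower genes, Apoe, Fabp4 and Abca1 were marked as possible carry-over. In thinned cells Fabp4 was 1.11-fold and Abca1 1.91-fold lower, short of the rule. In the 348 ASC cells with fewer than 2 G2/M UMIs Fabp4 was at 34.9 CPM, against 32.0 CPM in fiSC.

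Markers of other cell types differed as well. Endothelial markers summed to 221 CPM in fiSC and 16.2 CPM in ASC, with the receptor Tek alone at 180 CPM in fiSC. Tenocyte markers summed to 446 and 67.2 CPM, of which Chodl made up 428 CPM in fiSC and Scx 62.8 CPM in ASC. Mural cell markers summed to 382 and 58.3 CPM, of which Notch3 made up 134 CPM in fiSC. Mature fibre markers summed to 47.5 CPM in fiSC and 471 CPM in ASC, of which the giant sarcomere protein gene Ttn made up 379 CPM. Erythroid markers were at 5.78 and 19.1 CPM. Myogenic markers that the rule did not use summed to 8098 and 797 CPM, and 14 of 14 in fiSC and 13 of 14 in ASC reached 1 CPM. Satellite cells share several genes with each of these classes, and the part of admixed cells in the values above was not tested.

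Genes of the Y chromosome were lower in ASC. Ddx3y was at 326 CPM in fiSC, from male mice, and 69.8 CPM in ASC, from both sexes, and was detected in 41.9% of thinned fiSC and 12.6% of thinned ASC cells, or in 79% and 88.4% without thinning. Uty was at 141 and 20.9 CPM, Eif2s3y at 63.7 and 17.7 CPM, and Kdm5d at 19.3 and 5.14 CPM. All 4 met the size rule. The part of the sex of the mice in these values was not tested, and its effect on other genes cannot be told apart from that of injury.

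Depth was varied by keeping only cells of 10000 to 40000 UMIs, 846 in fiSC and 767 in ASC, an alternative chosen after seeing the data. In them 2164 genes were higher and 1805 lower, of which 1961 and 1759 were among those called in all cells. The medians were 3.31 for G2/M, -2.03 for quiescence and -1.93 for extracellular matrix genes. The 28 list medians kept their sign in every alternative in which they were read, and so did the ratios of the 30 genes with the highest and lowest values. Those 30 genes were picked for large ratios among genes that kept their call in each planned set of cells. Their sign in those sets was thus fixed by the selection and supports nothing.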

How the data were processed

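Droplet single-cell RNA libraries (Chromium 3' v3.1, per the labels' protocols) were deposited by the authors as UMI counts per gene and barcode, with no normalization. Reads were aligned with STAR 2.7.10b and the build named is GRCm39, per the submitters' processing notes. UMI collapsing, barcode calling and the gene annotation are not given in the sources used here.

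Cells were filtered by the rule given above, UMIs were summed per library and scaled to CPM, and ratios carry a pseudocount of 5 CPM. Cells, members and lists were chosen with earlier results of these data known. No doublets were removed in the main values. Scrublet (scanpy 1.11.5) scored the barcodes past the quality filter. The highest scores were marked at an assumed rate of 0.8% for each 1000 such barcodes, so the number marked per library was set in advance. Among the marked were 58 fiSC and 60 ASC myogenic cells, which an alternative left out. Macrophage carry-over was estimated as the median, over 20 markers, of the level in ASC myogenic cells relative to ASC macrophage cells. Genes with at least 25% of their ASC level from it were marked. Sums have exact Poisson and shares exact Clopper-Pearson intervals (95%). A count of 0 was set against a floor of 3 counts. Shares were read after thinning cells to 2000 UMIs.

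Named genes were the 15 highest and 15 lowest ratios among genes of at least 100 CPM that kept their call in each planned set of cells and were neither marked nor used for selection, up to 4 members of each list in its main direction and 2 in the other, the genes of the rule, and the 8 most abundant marked genes. Of the 15 lowest, 1 gene is not reported here. Other list members, markers, the reporter and Y-linked genes were named after their values were seen. Scaling alternatives used edgeR 4.0.16 (TMM) and DESeq2 1.42.0 size factors, with no test. The size rule was tested on simulated data. Promoter sequences are from RefSeq on GRCm38.p6, another build than that of the counts, matched by symbol. For the heat shock, quiescence, DNA replication and respiratory chain lists under 80% of members had an entry, and their motif shares are not used.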

Additional observations from a re-analysis of the deposited data

How the results depend on the processing

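No paired analysis was possible because each group has 1 library, and there is no replicate to leave out. The counts of higher and lower genes moved by more than 1.5 times with a pseudocount of 20 CPM (1219 higher and 1353 lower), a minimum of 50 CPM (1130 and 1393) and a 4-fold ratio (686 and 786). They stayed within 1.5 times of 2113 and 2106 with a macrophage limit of 0.1%, stricter cell filters, thinned cells, doublets removed, carry-over subtracted (2072 and 2154), a pseudocount of 1 CPM, no minimum, and other scalings. DESeq2 size factors gave 2456 and 1809 genes (57.6% of the called genes higher, median shift 0.15), and leaving out 127 mitochondrial and ribosomal protein genes gave 2761 and 1914 (59.1%, shift 0.16). The fiSC cells low in immediate early and heat shock genes and the depth window were alternatives added after seeing the data. A gene with 0 UMIs could have had up to 0.15 CPM in fiSC and 0.023 CPM in ASC.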
